A study of Arabidopsis thaliana with 6 samples.

Results

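Cytosolic 40S ribosomal proteins are the proteins of the small subunit of the ribosome that translates messenger RNA in the cytosol. A list of 60 Arabidopsis loci in 28 families was used, and a locus counted as measured when the array annotation pairs a probe set with it alone. This held for 31 of the 60 loci, against 13286 loci in the whole table, and each of the 31 had 1 such probe set. Of the others, 14 loci lie only on probe sets shared between genes and 15 have no probe set in the annotation used here. The annotation lists the 31 measured genes by locus only, so their families follow the general nomenclature of Arabidopsis ribosomal proteins.

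The mutant atsf1-2, in the accession Col-0, was compared with wild-type Col-0. AtSF1 is a protein of pre-mRNA splicing. Untreated whole seedlings of both genotypes were taken after 9 days on MS agar at 23 C, with 16 h of light and 8 h of dark, and each genotype had 3 biological replicates with 1 ATH1 array each. The sources used here do not give the nature of the atsf1-2 lesion or how many seedlings were pooled, and p-values measure only the spread between these samples. No probe set is paired with the AtSF1 gene alone, so the labels were not checked against it.

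The small subunit binds the messenger RNA, scans it for the start codon and holds it while codons are read. It has a head and a body, joined by a narrow neck around which the message passes. In Arabidopsis nearly every ribosomal protein is encoded by several paralogs, genes of common origin whose products are alike or nearly so. Growing tissue makes many ribosomes, and loss of single paralogs is known to give plants with pointed leaves and slow growth. Transcripts of these genes are among the most abundant in plant cells.

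Signals are MAS5 intensities on a linear scale, scaled by the submitters to a trimmed mean of 500.0 to 500.1 on every array, and the median signal of an array was 165 to 195. A log2 fold change is the mean log2 signal of atsf1-2 minus that of Col-0, with the standard error of limma's moderated fit over 13648 probe sets. Among the arrays, atsf1-2 replicate 3 and Col-0 replicate 2 were set apart by low array weights in limma, 0.315 and 0.535, where the other 4 had 0.82 to 2.45. Their 3' to 5' ratios of the actin control were 2.47 and 2.14, where the others had 3.36 to 3.63. In atsf1-2 the log2 ratios of the GAPDH and ubiquitin controls were 0.137 ± 0.0587 and 0.458 ± 0.0801, against 0.00182 ± 0.141 and 0.36 ± 0.0614 in Col-0 (SD, n = 3; exact permutation p = 0.2 for each, two-sided, where 3 against 3 cannot go below 0.1). The part of RNA quality in the results was not tested. Root markers EXPA7, EXPA18 and PYK10 had log2 fold changes of -0.03, -0.06 and -0.01. The green leaf marker RCA had 0.16, and no listed marker of dividing cells had a probe set of its own.

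Signals of 40S genes lay slightly higher in atsf1-2 with the scaling as deposited, though 6 of 30 lay lower after quantile normalization, and nearly all of the differences were too small to pass. Of 31 measured genes, 30 passed the filter on low signals. All 30 had log2 fold changes above 0 with the signals as deposited (41.5% of all tested probe sets). After quantile normalization 24 of 30 did (49.8%) and 6 lay below 0. Median centring adds the same 0.14 to every log2 fold change, so all 30 had to stay above 0 there (58.4% of all tested). The median log2 fold change was 0.22, a fold of 1.17, with a range of 0.08 to 0.44, and the median of all tested probe sets was -0.07. In whole seedlings, more RNA per cell and more cells rich in these transcripts cannot be told apart.

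A single gene passed the adjusted threshold of 0.05, and none was called lower. That is 3.33% of the 30, against 3.00% of all tested probe sets called higher and 5.19% called lower (8.19% in either direction), so the share called was near that of the array as a whole. At an unadjusted p under 0.05, 10 of 30 were higher, against 9.50% of all tested. The groups did not overlap, with every atsf1-2 array above every Col-0 array, for 13 of 30 genes (43.3%), against 12.1% of all tested probe sets. For 20 of the 30 genes the 95% interval of the change included 0.

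**Figure D1:**
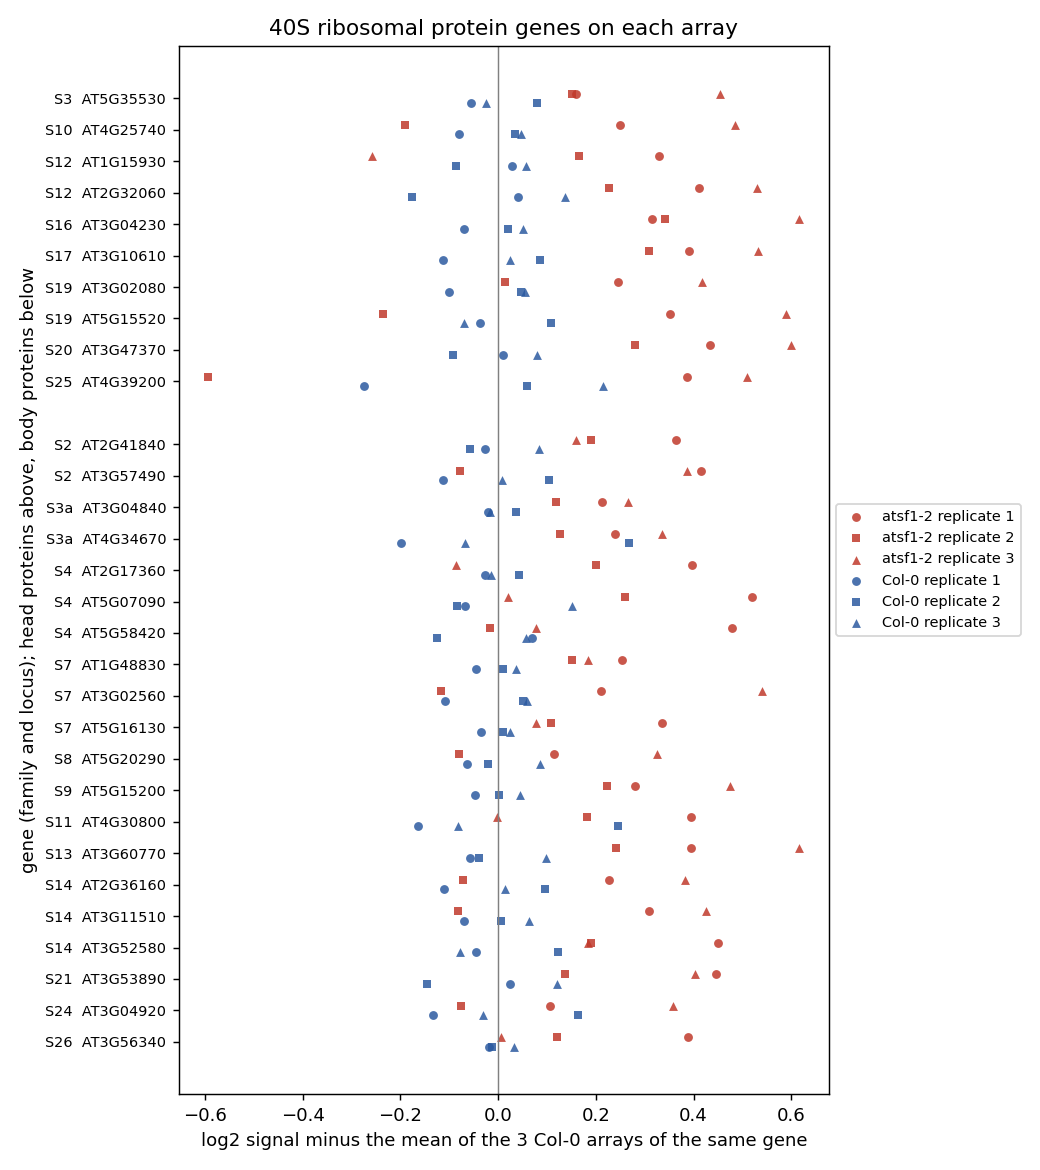
Log2 signal of the 30 tested 40S genes on each of the 6 arrays (x axis), as the difference from the gene's mean over the Col-0 arrays; each row is a gene, with atsf1-2 arrays in red above Col-0 arrays in blue. Points of atsf1-2 replicates 1 and 3 mostly lie right of 0, while 20 of 30 genes do so on atsf1-2 replicate 2; the signals are as deposited, and after quantile normalization 6 genes had changes below 0.

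The plot of signals by array shows that the shift was not equal on the mutant arrays. The median deviation of the 30 genes from their Col-0 means was 0.34 on atsf1-2 replicate 1, 0.13 on atsf1-2 replicate 2 and 0.38 on atsf1-2 replicate 3, against -0.06, 0.03 and 0.05 on Col-0 replicates 1 to 3. On atsf1-2 replicate 1 all 30 genes lay above their Col-0 mean, on replicate 3 27 did, and on replicate 2 20 did. Replicate 2 gave the lowest atsf1-2 signal for 21 of the 30 genes and the highest for 0. Among Col-0 arrays, replicate 1 gave the lowest signal for 21 genes. Without atsf1-2 replicate 2 the groups of 23 genes did not overlap, against 16.4% of all tested probe sets over the same 5 arrays, and the median log2 fold change was 0.31. That array was picked for its low signals in these genes, so leaving it out was bound to raise the median. Without atsf1-2 replicate 1 or 3 the groups of 13 and 17 genes did not overlap, with medians of 0.17 and 0.23. The shares of all tested probe sets in those 2 settings are not given here. Without atsf1-2 replicate 3 and Col-0 replicate 2, the arrays set apart, the median was 0.22 and 0 genes passed. Of all 13648 tested probe sets, 433 were called higher and 768 lower in that fit.

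Proteins of the head were measured for 10 genes in 8 families, with a median log2 fold change of 0.24 and 5 genes whose groups did not overlap, against 12.1% of all tested probe sets. The head carries the proteins around the entry of the message and those that touch the transfer RNA, among them S3, S10, S16, S19 and S20.

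S20 (AT3G47370), which lies in the head beside S3 and is a site of ubiquitin marks on stalled ribosomes in yeast and human cells, was the gene that passed. Its signal was 5026, 4518 and 5635 on the atsf1-2 arrays, against 3749, 3493 and 3934 on the Col-0 arrays. The lowest mutant array lay above the highest wild-type array. The means were 5060 ± 560 in atsf1-2 and 3725 ± 221 in Col-0 (SD, n = 3 each), a log2 fold change of 0.44 ± 0.12 (SE; adjusted p = 0.0486 by limma). The call ended with no filter (adjusted p = 0.0847 by limma), after quantile normalization (0.0944), without a trend (0.0969), and without any single array other than atsf1-2 replicate 2 (0.0673 to 0.155). It also ended without the pair of arrays set apart (0.0954, log2 fold change 0.31).

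S16 and S17 had changes of about the same size as S20. The signal of S16 (AT3G04230), whose tail reaches the transfer RNA in the peptidyl site, was 977, 995 and 1204 on the atsf1-2 arrays, against 748, 796 and 814 on the Col-0 arrays. Its log2 fold change was 0.42 ± 0.14 (SE; adjusted p = 0.0773 by limma). S17 (AT3G10610), required for maturation of small-subunit RNA in human cells, had 2501, 2363 and 2758 on the atsf1-2 arrays, against 1765, 2025 and 1941 on the Col-0 arrays. Its log2 fold change was 0.41 ± 0.12 (SE; adjusted p = 0.0614 by limma). In both genes the genotypes did not overlap. Their changes after quantile normalization were 0.48 for S16 and 0.37 for S17, the highest of the 30 genes there, yet neither gene passed (S20 had 0.32).

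S12, a protein of the beak of the head, was measured for a pair of paralogs with different values. AT2G32060 had 5114, 4500 and 5556 on the atsf1-2 arrays, against 3956, 3404 and 4228 on the Col-0 arrays, without overlap. Its log2 fold change was 0.39 ± 0.13 (SE; adjusted p = 0.0838 by limma). AT1G15930 had 12382, 11055 and 8238 on the atsf1-2 arrays, against 10051, 9285 and 10247 on the Col-0 arrays. Its value on atsf1-2 replicate 3 was the lowest of all 6 arrays, while replicates 1 and 2 were above every Col-0 array. Its log2 fold change was 0.08 ± 0.14 (SE), the smallest of the 30 genes, and it turned to -0.07 after quantile normalization and to -0.05 without atsf1-2 replicate 1.

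The remaining head genes did not pass, and of these only S3 had genotypes that did not overlap. S3 (AT5G35530), which lines the entry of the message, had 10342, 10280 and 12685 on the atsf1-2 arrays, against 8910, 9785 and 9102 on the Col-0 arrays, with a log2 fold change of 0.25 ± 0.11 (SE; adjusted p = 0.187 by limma). S19, which like S17 is required for maturation of small-subunit RNA in human cells, had log2 fold changes of 0.23 for AT3G02080 and 0.23 for AT5G15520, and the genotypes overlapped for both paralogs. S10 (AT4G25740), a neighbour of S3 at the entry of the message, had 0.18 ± 0.16 (SE). S25 (AT4G39200), used by some viral messages to bind the subunit in human cells, had 14688, 7453 and 15994 on the atsf1-2 arrays, against 9296, 11707 and 13050 on the Col-0 arrays. Its low value on atsf1-2 replicate 2 gave it the widest interval of the 30 genes, from -0.44 to 0.64 on the log2 scale. Its change of 0.10 turned negative after quantile normalization, without Col-0 replicate 1, and without atsf1-2 replicate 1 or 3.

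**Figure D2:**
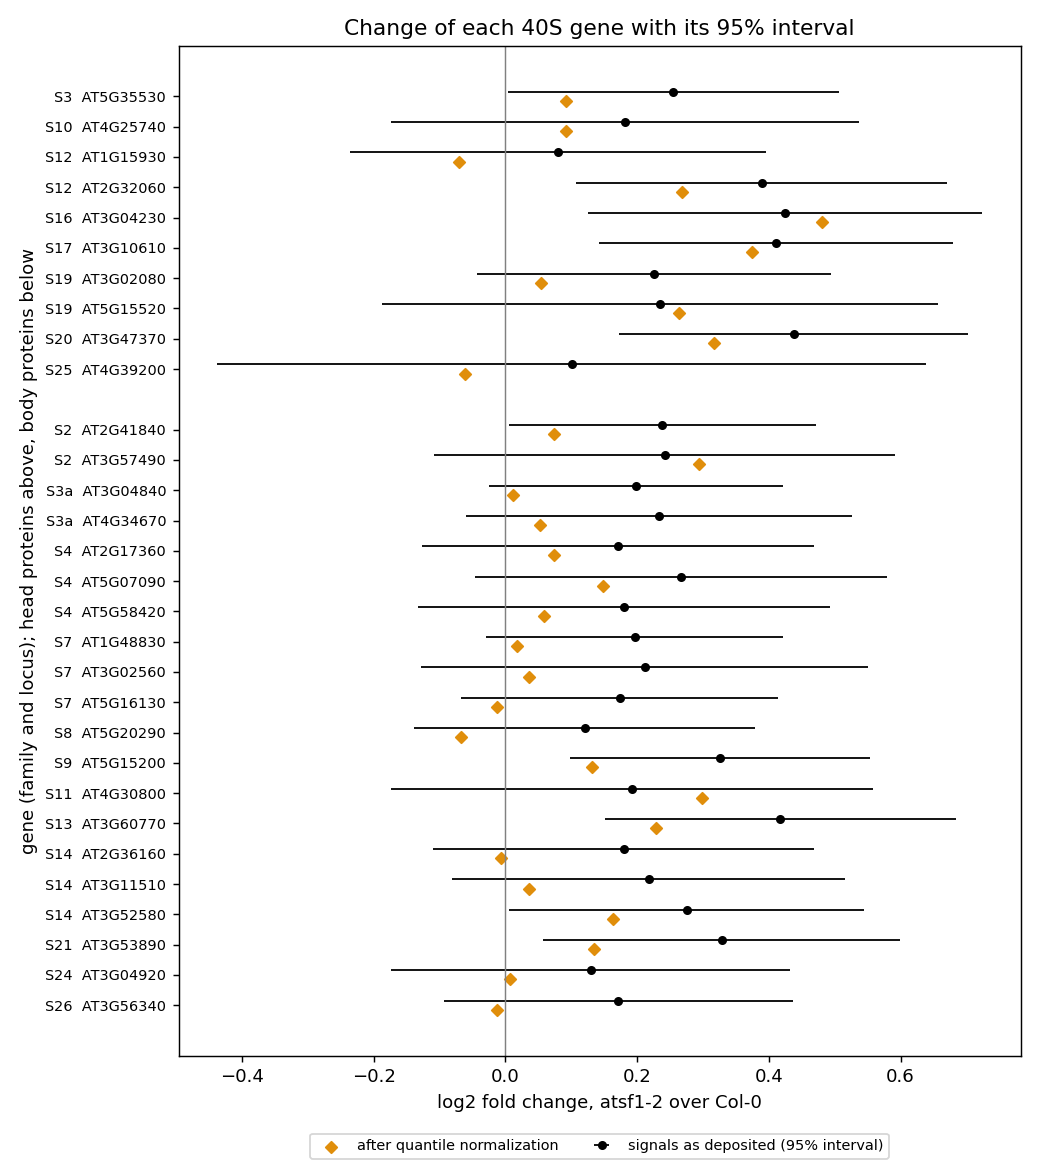
Log2 fold change of atsf1-2 over Col-0 for each tested 40S gene (x axis), with black points and 95% intervals for the signals as deposited and orange diamonds for quantile-normalized signals; genes of the head lie above those of the body. All black points lie between 0.08 and 0.44, and 6 of the 30 diamonds lie below 0.

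Proteins of the body, with its platform, were tested for 20 genes in 12 families, with a median log2 fold change of 0.20 and 8 genes whose groups did not overlap, against 12.1% of all tested probe sets. None passed the adjusted threshold. After quantile normalization the median of these genes was 0.06, with 16 of 20 above 0, while that of the head genes was 0.18, with 8 of 10 above 0. Quantile normalization lowered the change of bright genes such as S9 (0.33 to 0.13). It raised that of dim ones such as S16 of the head (0.42 to 0.48) and S11 of the body (0.19 to 0.30). The difference between head and body genes, and the part of signal level in it, was not tested.

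S13 (AT3G60770), a protein that contacts the large subunit, came nearest to the threshold among body genes. Its signal was 8125, 7306 and 9470 on the atsf1-2 arrays, against 5935, 6010 and 6613 on the Col-0 arrays. Every mutant array lay above every wild-type array. The log2 fold change was 0.42 ± 0.12 (SE; adjusted p = 0.0574 by limma), and it passed with array weights (0.0234), with a term for both arrays set apart (0.0252), with median centring (0.0408) and without atsf1-2 replicate 2 (0.0388). Under the other alternatives its adjusted p by limma was 0.0537 to 0.196.

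S9 and S21 also had genotypes that did not overlap. S9 (AT5G15200), which with S2 and S3 frames the entry of the message, had 14678, 14112 and 16792 on the atsf1-2 arrays, against 11698, 12114 and 12474 on the Col-0 arrays, and a log2 fold change of 0.33 ± 0.10 (SE; adjusted p = 0.0754 by limma). S21 (AT3G53890), a small protein of the body, had 8159, 6584 and 7914 on the atsf1-2 arrays, against 6089, 5418 and 6511 on the Col-0 arrays. Its lowest mutant array was only just above its highest wild-type array, and its log2 fold change was 0.33 ± 0.12 (SE; adjusted p = 0.122 by limma).

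S14, a platform protein needed in yeast for cleavage of the small-subunit RNA precursor, was measured for 3 paralogs. AT3G52580 had 4579, 3827 and 3810 on the atsf1-2 arrays, against 3248, 3651 and 3178 on the Col-0 arrays, without overlap. AT3G11510 had 8615, 6570 and 9333 on the atsf1-2 arrays, against 6624, 6978 and 7269 on the Col-0 arrays. AT2G36160 had 7531, 6130 and 8392 on the atsf1-2 arrays, against 5961, 6882 and 6504 on the Col-0 arrays. In the last pair of genes atsf1-2 replicate 2 lay within or below the Col-0 values. The log2 fold changes were 0.27 ± 0.12, 0.22 ± 0.14 and 0.18 ± 0.13 (SE), and none passed.

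S2, S3a, S4 and S7 were measured for 10 genes with log2 fold changes from 0.17 to 0.27. S2, at the entry of the message, had 0.24 for both AT2G41840 and AT3G57490. AT2G41840 had 10351, 9167 and 8982 on the atsf1-2 arrays, against 7888, 7728 and 8517 on the Col-0 arrays, without overlap. S3a, near the exit of the message, had 0.20 for AT3G04840, without overlap, and 0.23 for AT4G34670, where Col-0 replicate 2 (8051) lay above both atsf1-2 replicate 1 (7890) and replicate 2 (7308). S7, needed for maturation of small-subunit RNA in yeast, had 0.20 for AT1G48830 and 0.17 for AT5G16130, both without overlap, and 0.21 for AT3G02560, with overlap.

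S4, a protein of the body, was measured for 3 paralogs. AT5G07090 had 5195, 4342 and 3678 on the atsf1-2 arrays, against 3458, 3422 and 4027 on the Col-0 arrays. AT2G17360 had 4227, 3685 and 3024 on the atsf1-2 arrays, against 3148, 3306 and 3175 on the Col-0 arrays. AT5G58420 had 5628, 3995 and 4267 on the atsf1-2 arrays, against 4239, 3703 and 4204 on the Col-0 arrays. In each of these 3 genes atsf1-2 replicate 1 gave the highest signal and the genotypes overlapped, with log2 fold changes of 0.27, 0.17 and 0.18.

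None of the other body genes passed. S8 (AT5G20290) had the highest mean signal, with 15402, 13461 and 17817 on the atsf1-2 arrays, against 13607, 14016 and 15087 on the Col-0 arrays, and a log2 fold change of 0.12 ± 0.12 (SE) that turned to -0.07 after quantile normalization. S24 (AT3G04920) had 0.13 ± 0.14 (SE) and S26 (AT3G56340), at the exit of the message, had 0.17 ± 0.12 (SE). S11 (AT4G30800) had the lowest signal of the tested genes, with 578.3, 499.1 and 439.4 on the atsf1-2 arrays, against 392.4, 521.2 and 415.6 on the Col-0 arrays, and a log2 fold change of 0.19 ± 0.17 (SE). The S15a gene AT2G39590 did not pass the filter, with 19.1, 3.75 and 48.2 on the atsf1-2 arrays, against 8.45, 50.6 and 1.19 on the Col-0 arrays. Those values lie far below 104.44, the lowest geometric mean kept, and give no direction.

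Paralogs of a family were then compared for unequal change, by their log2 ratio within each array. In 7 families, 13 pairs were compared, and none separated the genotypes. The largest difference was that of the S12 pair. The log2 ratio of AT2G32060 to AT1G15930 was -1.28, -1.30 and -0.57 on the atsf1-2 arrays, against -1.35, -1.45 and -1.28 on the Col-0 arrays. The difference between genotypes was 0.31 (exact permutation p = 0.2, two-sided; 1 after Benjamini-Hochberg adjustment over 13 pairs). The ratio on atsf1-2 replicate 3 lay far above the other 5 arrays. Without that array the difference was 0.07, and without both arrays set apart it was 0.03.

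The next largest differences were 0.10 in each of a pair of S4 genes and a pair of S14 genes. The log2 ratio of AT5G07090 to AT2G17360 was 0.27 ± 0.03 in atsf1-2 and 0.18 ± 0.15 in Col-0 (SD, n = 3 each; exact permutation p = 0.4). That of AT3G52580 to AT2G36160 was -0.85 ± 0.26 in atsf1-2 and -0.94 ± 0.08 in Col-0 (SD, n = 3 each; exact permutation p = 0.6). In the other 10 pairs the difference lay between 0.0032 and 0.09. With 3 arrays against 3 the test cannot pass 0.05, so these values do not show that paralogs changed alike.

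**Figure D3:**
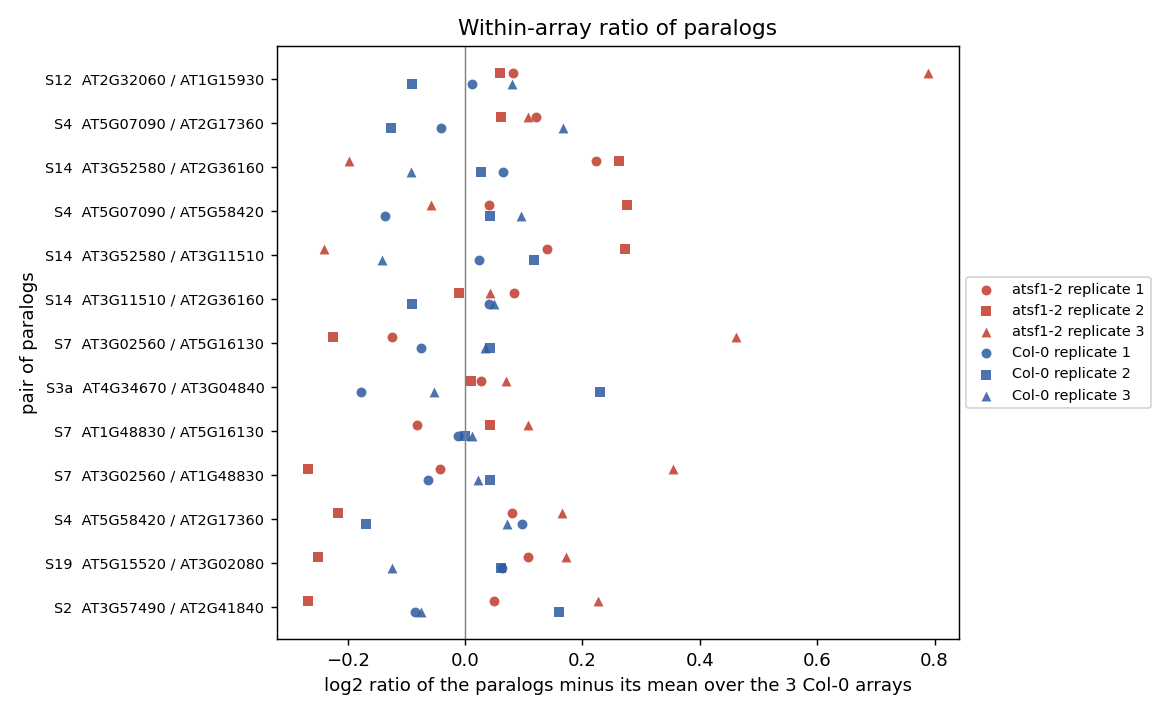
Log2 ratio of the signals of 2 paralogs within an array, minus the mean of that ratio over the Col-0 arrays (x axis), for 13 pairs (rows), with atsf1-2 arrays in red above Col-0 arrays in blue. Red and blue points overlap in every pair, and the point farthest right is atsf1-2 replicate 3 in the S12 pair.

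The size of the shift was set beside that of other bright probe sets, a comparison chosen after the values were seen. Of the 30 genes, 20 were among the brightest 5% of tested probe sets. The 594 other probe sets of that range, without cytosolic ribosomal protein genes, had a median log2 fold change of 0.15, with 73.7% above 0 and 32.0% without overlap. The 20 genes in that range had a median of 0.21, with 100% above 0 and 50% without overlap. After quantile normalization, which forces all arrays to the same distribution, the medians were 0.04 for the 20 genes, -0.02 for the other bright probe sets and 0.07 for all 30 genes.

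**Figure D4:**
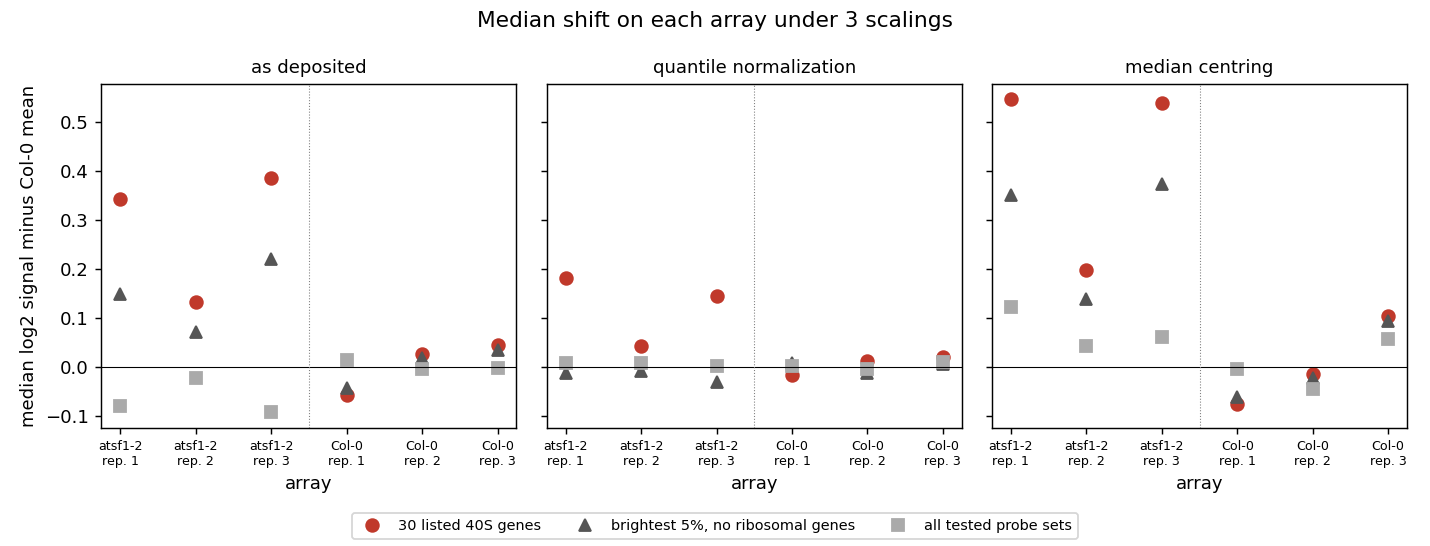
Median log2 signal on each array as the difference from the Col-0 mean (y axis) for the 30 genes of the 40S subunit (red circles), the 594 other probe sets of the brightest 5% (dark triangles) and all tested probe sets (grey squares), under 3 scalings. With the signals as deposited the red circles reach 0.34, 0.13 and 0.38 on the atsf1-2 arrays, and after quantile normalization 0.18, 0.04 and 0.15.

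Relative to the median of all tested probe sets, the median of the 30 genes was higher by 0.29 on the log2 scale with the signals as deposited. After quantile normalization it was higher by 0.08. Median centring moved every log2 fold change by the same 0.14, so the 0.29 could not change there. The share of lower calls among all calls was 63.4% as deposited (409 higher and 709 lower), 51.5% after quantile normalization (449 and 476) and 32.4% with median centring (755 and 362). With median centring 4 of the 30 genes passed (S13, S16, S17 and S20), against 5.53% of all tested probe sets called higher and 2.65% lower, and the groups of 15 genes did not overlap, against 20.2%. After quantile normalization 0 of 30 passed, against 3.29% called higher and 3.49% lower, and the groups of 6 did not overlap, against 15.1%. With array weights 6 genes passed, against 6.94%, and with a term for both arrays set apart 6 passed, against 6.54%. Without atsf1-2 replicate 2 the count was 2, against 2.67%.

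Other genes of the 40S subunit and of translation were read from the same fit. Of 37 further 40S loci, 17 had a probe set of their own and 12 were tested. All 12 had log2 fold changes above 0, also after quantile normalization, with a median of 0.33 (0.23 after quantile normalization). Of these 2 rose, against 3.00% of all tested probe sets called higher, and 1 did after quantile normalization. AT2G45710, of the S27 family, had 2368, 2151 and 3121 on the atsf1-2 arrays, against 1528, 1544 and 1519 on the Col-0 arrays, a log2 fold change of 0.72 ± 0.15 (SE; adjusted p = 0.0181 by limma). AT5G52650, a paralog of the measured S10 gene, had 6916, 6332 and 7093 on the atsf1-2 arrays, against 5090, 4882 and 5450 on the Col-0 arrays, and 0.40 ± 0.11 (SE; adjusted p = 0.0453 by limma), a call that ended after quantile normalization (0.165). Both genes had genotypes that did not overlap. On 9 probe sets that several 40S genes share, log2 fold changes ran from -0.0024 to 0.63 and 2 rose, against 3.00% of all tested, but no gene can be named from them.

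Genes of the 60S subunit, the large subunit that joins the 40S to form bonds between amino acids, were also mostly above 0. Of 131 loci, 75 were tested, 74 had log2 fold changes above 0 (63 after quantile normalization), and the median was 0.30 (0.16 after quantile normalization). Of these 8 rose (10.7%, against 3.00% of all tested) and 0 fell (against 5.19%) by limma's adjusted threshold, while 3 rose after quantile normalization and 1 without a trend. The largest changes among the 8 were those of AT3G28500, an acidic protein of the ribosomal stalk, with 323 ± 63.1 in atsf1-2 and 138 ± 32.1 in Col-0, of AT3G06680 (L29), with 5150 ± 1715 in atsf1-2 and 3059 ± 337 in Col-0, and of AT2G19730 (L28), with 13377 ± 3285 in atsf1-2 and 8493 ± 385 in Col-0 (SD, n = 3 each). The call of AT3G06680 ended after quantile normalization (adjusted p = 0.0703 by limma). The difference between 40S and 60S genes was not tested.

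**Figure D5:**
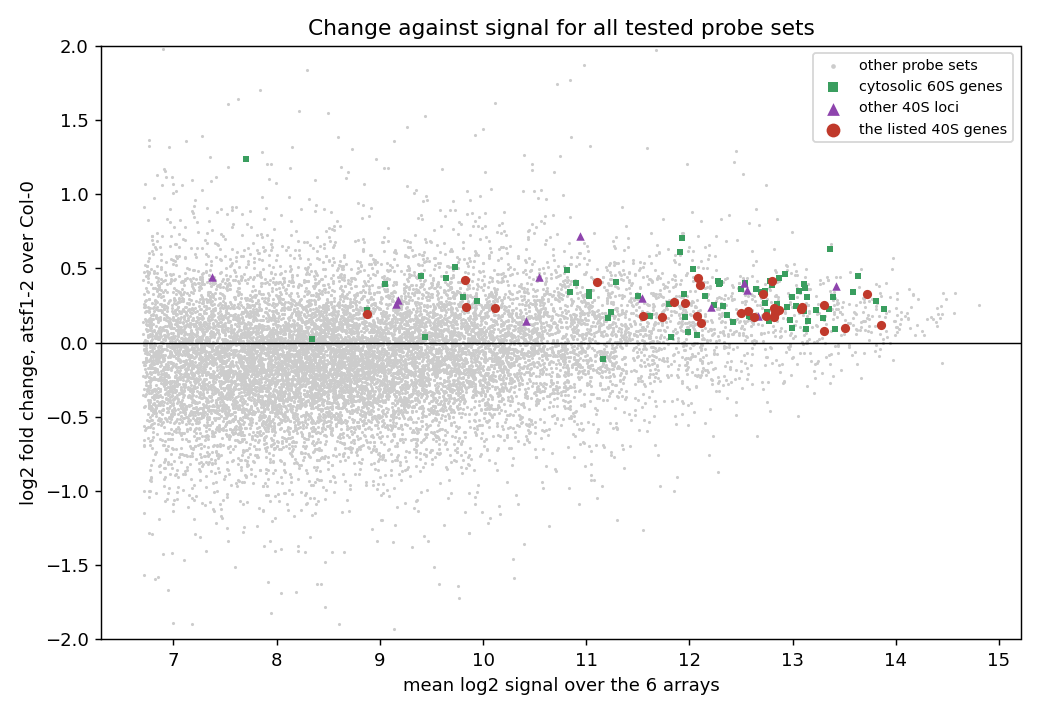
Log2 fold change of atsf1-2 over Col-0 (y axis) against the mean log2 signal over the 6 arrays (x axis) for all tested probe sets (grey), with cytosolic 60S genes as green squares, the 12 further 40S loci as purple triangles and the 30 listed 40S genes as red circles; 17 probe sets, none of them ribosomal, lie outside the axis. The signals are as deposited. The 30 genes lie above 0, and 20 of them are among the brightest 5% of probe sets, which mostly lie above 0 too. After quantile normalization 6 of the 30 genes lie below 0.

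Factors that work with the 40S subunit were read in the same way. Of 11 tested translation initiation factors, 8 had log2 fold changes above 0, the median was 0.17 and 2 rose, against 3.00% of all tested. After quantile normalization 1 of them rose, and with no filter or without a trend 0 did. The change largest in size was a fall that did not pass. AT1G76810 had 350, 474 and 263 on the atsf1-2 arrays, against 544, 505 and 529 on the Col-0 arrays, without overlap. Its log2 fold change was -0.58 ± 0.20 (SE; adjusted p = 0.0960 by limma). The genes that rose with the signals as deposited were AT5G35680, an eIF1A gene, with 5086 ± 852 in atsf1-2 and 3445 ± 332 in Col-0, and AT1G77840, an eIF5 gene, with 909 ± 35.6 in atsf1-2 and 642 ± 70.7 in Col-0 (SD, n = 3 each). Of 12 tested factors of ribosome assembly none passed, with a median of 0.07, and AT5G15550, a factor of the large subunit, had the smallest p, with 0.28 ± 0.17 (SE). Of 3 tested genes for the small subunit of plastid ribosomes none passed, with a median of -0.04, and AT5G24490 had -0.12 ± 0.14 (SE). RAPTOR2 (AT5G01770), a partner of the TOR kinase that promotes ribosome synthesis, had 95.8, 125 and 22.9 on the atsf1-2 arrays, against 207, 190 and 191 on the Col-0 arrays, and did not pass (adjusted p = 0.0717 by limma). Of its atsf1-2 signals 2 lie below 104.44, the lowest geometric mean kept, so no fold is given. No gene for RACK1 or the S6 kinases was tested.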

How the data were processed

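The authors deposited 1 signal intensity per probe set and array. The submitters' processing notes name MAS5 and Affymetrix Expression Console 1.2, and no source used here gives their settings. Groups follow the sample titles. Members and gene lists were chosen with earlier results of these data known. Probe sets were paired with loci through the platform annotation and the RefSeq table of assembly TAIR10.1. Of 22810 probe sets, 64 controls were left out, and those with a mean log2 signal at or above the 40th percentile (13648) were fitted with limma 3.58.1 in R 4.3.3 (lmFit, eBayes with a trend, two-sided, Benjamini-Hochberg over all tested, threshold 0.05). The fit was checked on simulated data. Paralogs were compared by exact permutation tests (scipy 1.17.1). The number of arrays limits the precision.

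The rule for named genes takes members past the threshold with their paralogs, the 5 brightest and 3 dimmest members, the 3 pairs of paralogs that differed most, and from each other list up to 3 members past the threshold or the member with the smallest p. The other measured members were named in addition, to complete the families, after their values were seen. AT1G76810, from the other lists, was also named outside the rule with its values known. A ranking of genes by likeness to a member was not used, since the arrays fall into 2 genotypes. No sequences were used here. Arrays with the same replicate number did not deviate together (r = 0.10, -0.19 and -0.21 across probe sets), so samples were not treated as paired.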

Additional observations from a re-analysis of the deposited data

How the results depend on the processing

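Of the 30 genes tested, 17 kept direction and side of the threshold under all 16 alternatives that gave a value. Some alternatives could not change a direction. No filter, no trend, the replicate block and the term for both arrays set apart leave the log2 fold changes as they were, and median centring raises all equally. Since 1 gene passed in the main fit, keeping its side mostly meant that a gene was never called. Changes of sign under at least 1 alternative were seen for 6 genes. After quantile normalization the log2 fold changes were -0.067 for S8 (AT5G20290), -0.070 for AT1G15930, -0.061 for S25 (AT4G39200), -0.012 for AT5G16130, -0.0073 for AT2G36160 and -0.013 for S26 (AT3G56340). Leaving out single arrays gave -0.046 to 0.25 for AT1G15930 and -0.10 to 0.45 for AT4G39200, which had -0.074 without both arrays set apart. The median of the 30 genes was 0.074 after quantile normalization, 0.36 with median centring and 0.17 to 0.31 without single arrays. The number of genes called was 6 with a term for both arrays set apart, against 6.54% of all tested probe sets called higher. It was 6 with array weights (5 genes shared by these fits), against 6.94%, and 4 with median centring, against 5.53%. After quantile normalization it was 0, against 3.29%, and without single arrays it was 0 to 2. The count was also 0 with no filter, no trend or the replicate block, whose calls over all probe sets are given below. With both arrays set apart left out it was 0, where 433 of 13648 probe sets were called higher. Groups of 6 genes did not overlap after quantile normalization, against 15.1% of all tested probe sets. Without single arrays the groups of 13 to 23 genes did not overlap. The 23 were found without atsf1-2 replicate 2, where the share of all tested probe sets was 16.4%, against 12.1% with every array kept. For the other single arrays that share is not given here, so their counts cannot be set against all tested probe sets. The differences of paralog pairs without single arrays were 0.071 to 0.43 for S12, 0.033 to 0.18 for S4 and 0.013 to 0.24 for S14.

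Over all probe sets, 267 were higher and 439 lower with no filter, and 892 and 1511 with the term. The counts were 947 and 1713 with array weights, 755 and 362 with median centring, and 171 and 263 with the replicate block. With no trend they were 271 and 587, and without single arrays 130 to 463 and 151 to 777. The further 40S loci gave 1 call with no filter, quantile normalization, no trend or the replicate block, 7 with array weights, 4 with the term and 0 to 3 without single arrays. The 60S genes gave 2 with no filter, 3 with quantile normalization, 15 with median centring, 1 with no trend, 35 with array weights, 3 with the replicate block, 27 with the term and 1 to 17 without single arrays. Initiation factors gave 0 higher with no filter, no trend or the replicate block, 1 after quantile normalization or without both arrays, 4 with array weights and 0 to 3 without single arrays, and 1 lower with array weights, with the term or without atsf1-2 replicate 2. The TOR list gave 1 lower with a pseudocount of 38.4, with the term, with array weights and without both arrays, and 0 to 1 without single arrays. What caused these moves was not tested. Averaging probe sets of a locus could move nothing, since each measured gene had 1. The replicate numbers are not known to pair samples, and with the replicate block S20 (AT3G47370) had an adjusted p of 0.0870 by limma.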
